A study of Homo sapiens with 3 samples.

Results

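The mitosis genes are 40 named genes of the 36601 measured, taken by symbol. The list was drawn up with earlier results of these data known, although no cut on a measured value was used. All 40 genes were found once in the gene list. They were followed through induced melanocytes, cells made from human pluripotent stem cells by growing aggregates in a melanocyte differentiation medium with SCF, Endothelin-3, bFGF and medium conditioned by L-Wnt3a cells, then plating and passaging them. All groups followed this protocol, and all cells were frozen before library preparation. The medium also held dexamethasone, insulin-transferrin-selenium, linoleic acid with albumin, ascorbic acid, cholera toxin and a phorbol ester (TPA). At the stage of plating and passaging the TPA was left out and serum added. The day of this change is not given, so that cells of day 23 and of the later days may differ in TPA, serum and culture stage. Cells were taken at 3 time points, here D23, D32 and D44 (days 23, 32 and 44), with 1 droplet library each, and undifferentiated or primary cells were not analysed here. A shared induction and sequencing run gave both later libraries, while D23 had its own of each, so that day, induction and run cannot be told apart for D23 against the later libraries. Labels disagree on the starting cells, with induced pluripotent stem cells in the titles, but H9, which is an embryonic stem cell line, given as source and cell line. All cells are labelled as melanocytes, but markers split them into classes. A melanocyte-like cell had at least 4 of 12 pigment cell markers (PMEL, MLANA, DCT, TYR, TYRP1 and others), a mesenchymal-like cell at least 4 of 12 collagen and stromal markers, and a neural-like cell at least 4 of 12 neural markers. The melanocyte-like class held 2197, 5393 and 5701 cells in D23, D32 and D44, the mesenchymal-like class 281, 265 and 13, and the neural-like class 771, 110 and 5.

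Cells divide by copying their DNA in S phase and then separating the copies in mitosis. The kinase CDK1 with cyclins A and B starts mitosis, the kinetochore couples each chromosome to the spindle, and the spindle assembly checkpoint holds the anaphase-promoting complex (APC/C) back until every chromosome is attached. The complex then marks securin and the B cyclins for destruction, the sister chromatids part, and cytokinesis cuts the cell apart. Many of these genes are transcribed mainly in G2 and mitosis, when FOXM1 and MYBL2 drive promoters that the DREAM complex keeps silent in resting cells. Melanocytes of adult skin rarely divide, while their precursors and cultured melanocytes do.

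The files held 5585, 8927 and 8010 barcodes and 53298735, 268339312 and 280879346 UMIs (unique molecular identifiers, 1 per captured RNA molecule) in D23, D32 and D44. The study's cell limits left 3796, 6023 and 5811 cells, with a median of 12573.5, 36375 and 42940 UMIs. Because D23 was the shallowest, every level and share below was taken after thinning each cell to 5000 UMIs, which left out 177 cells of D23 and none of the others. CPM is the usual depth-scaled count unit, here of thinned UMIs. Intervals are exact 95% intervals that cover counting error only, and with 1 library a day no test between days was possible. Kept cells of different libraries shared 2 to 15 barcodes. In melanocyte-like cells all 12 pigment cell markers were detected and summed to 5067 CPM in D23, 11690 CPM in D32 and 13546 CPM in D44. In the mesenchymal-like class they summed to 99.6 to 215 CPM. The classes were defined by these same markers, so that this gap was fixed in advance and does not test them. Schwann cell markers summed to 1230 to 1551 CPM in the melanocyte-like cells, with 6 of 6 detected. The neural-like cells of D23 and D32 also held 3029 and 1846 CPM of the stromal markers, so that this class is not free of them. In the melanocyte-like cells, pluripotency markers summed to 36.2 to 69.7 CPM and blood markers to 4.19 to 12.6 CPM.

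All 40 mitosis genes were detected in the melanocyte-like cells of every library. Their summed level was 2540 CPM in D23 (95% interval 2510 to 2570), 2950 CPM in D32 (2929 to 2970) and 3271 CPM in D44 (3250 to 3292). The sum was thus higher at each later day by more than the counting error. For the median gene the level was 36.0 CPM in D23, 43.0 CPM in D32 and 49.9 CPM in D44. A typical member had a UMI in 13.9%, 16.9% and 18.3% of melanocyte-like cells as a median over the genes, and without thinning in 27.0%, 50.0% and 53.7%, which shows how far depth alone moves such shares.

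**Figure D1:**
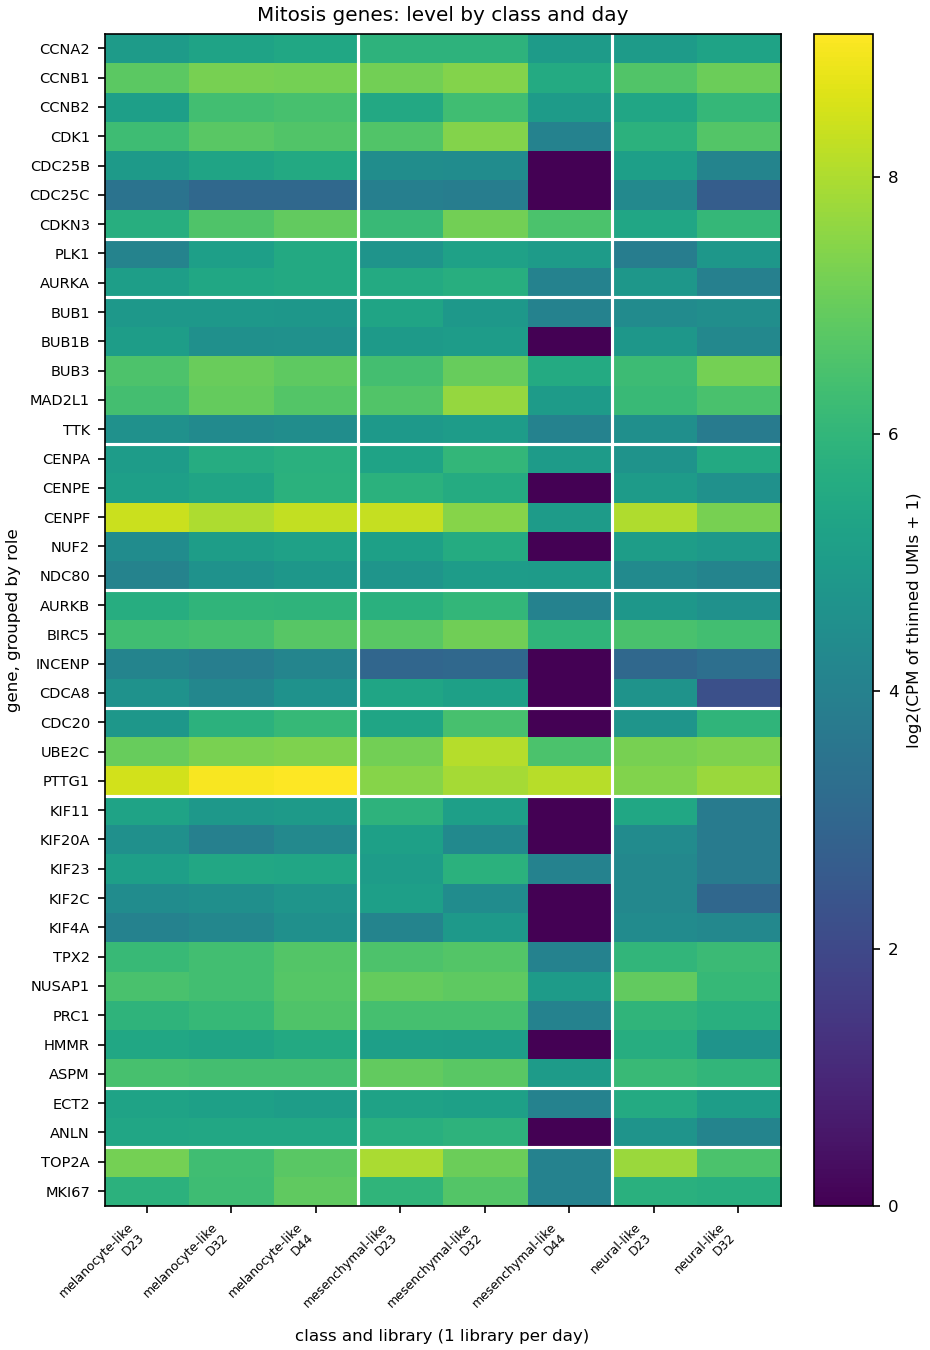
Level of each mitosis gene, as log2(CPM of thinned UMIs + 1), in 8 class and library groups. White lines divide the gene roles and the classes. The D44 mesenchymal-like column rests on 13 cells, in which 14 of the 40 genes had no UMI, and the 5 neural-like cells of D44 are not drawn.

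The genes were next described by role in melanocyte-like cells. CCNB1 and CCNB2, the B cyclins, had 112, 151 and 148 CPM and 34.4, 81.0 and 87.5 CPM over D23, D32 and D44, and CCNA2, cyclin A, at 31.2, 37.8 and 41.8 CPM. CDK1 itself was measured at 77.7, 110 and 97.8 CPM. Its regulators were CDKN3, a phosphatase of CDKs, with 50.9, 97.0 and 121.5 CPM, and the activating phosphatases CDC25B, with 30.3, 39.3 and 45.9 CPM, and CDC25C, with 10.0, 7.38 and 7.47 CPM. In this group CCNB2 and CDKN3 were far lower in D23 than in the later libraries, and CDC25C was not. PLK1, a kinase of mitotic entry and exit, had 15.7, 34.6 and 45.6 CPM, and AURKA, the kinase of the spindle poles, had 33.2, 42.5 and 45.6 CPM.

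The checkpoint genes went in no common direction. MAD2L1, which binds and blocks CDC20, had 83.4, 123 and 102 CPM in D23, D32 and D44, and its partner BUB3 had 94.9, 131 and 114 CPM, both highest in D32. The kinases BUB1 and TTK kept within 27.6 to 28.3 CPM and 19.5 to 23.4 CPM over the libraries, and BUB1B had 32.4 CPM in D23 but 23.0 and 23.5 CPM in D32 and D44. At the centromere, CENPA, the histone variant that marks it, had 32.0, 49.4 and 53.9 CPM, and the NDC80 complex members NDC80 and NUF2 had 15.7, 24.3 and 27.1 CPM and 20.4, 32.9 and 36.6 CPM. The large kinetochore proteins differed from these: CENPF had 335.5, 257 and 310 CPM, lowest in D32, and the motor CENPE had 34.0, 38.9 and 54.9 CPM.

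The chromosomal passenger complex corrects faulty attachments. Its kinase AURKB had 50.0, 60.7 and 60.5 CPM, survivin (BIRC5) 78.7, 85.7 and 107 CPM, its scaffold INCENP 16.3, 14.1 and 16.8 CPM and borealin (CDCA8) 24.2, 17.8 and 23.8 CPM in D23, D32 and D44. Only BIRC5 of these was higher at each step. The APC/C activator CDC20 had 27.3, 57.0 and 68.0 CPM, its ubiquitin enzyme UBE2C 126, 156 and 162 CPM, and securin (PTTG1) 361, 518 and 553 CPM. All of them were higher at each step, though UBE2C from D32 to D44 only within the counting error (fold interval 0.991 to 1.08).

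Among the spindle genes, PRC1, which bundles the midzone microtubules, had 60, 67.6 and 96.0 CPM in D23, D32 and D44, and TPX2, which nucleates spindle microtubules, had 69.6, 81.6 and 100 CPM. The motors KIF11, KIF20A, KIF23, KIF2C and KIF4A ranged from 14.5 to 43.0 CPM over the 3 libraries, and NUSAP1, HMMR and ASPM from 39.5 to 103 CPM. KIF20A was lowest in D32 at 14.5 CPM, with 23.1 CPM in D23 and 18.7 CPM in D44. The cytokinesis genes ECT2 and ANLN moved less, at 33 to 37.6 CPM and 40.7 to 43.7 CPM. TOP2A, the enzyme that untangles sister chromatids, had 146, 78.3 and 108 CPM, and MKI67, the proliferation marker Ki-67, had 57.5, 77.7 and 117 CPM. Over the 40 genes, 20 were higher at each step, 1 was lower at each step, 7 were highest and 12 lowest in D32. These counts take the levels without their counting error. ANLN, for example, had fold intervals of 0.944 to 1.18 from D23 to D32 and 0.94 to 1.1 from D32 to D44. The same counts were not made over all genes, so that no trend of the mitosis genes is read from them.

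The genes were detected together in part of the cells. Of the 40, the median melanocyte-like cell had a UMI of 4, 5 and 5 genes in D23, D32 and D44, and the fullest cell of 33, 33 and 34. Cells with 10 or more of the 40 made up 24.2% of melanocyte-like cells in D23 (531 of 2197, interval 22.4 to 26.0%), 31.9% in D32 (1721 of 5393, 30.7 to 33.2%) and 35.4% in D44 (2018 of 5701, 34.2 to 36.7%). The share was thus higher at each later day, and these cells held 71.8%, 73.8% and 78.6% of all UMIs of the 40 genes. The limit of 10 cuts a range rather than a type, since 82, 314 and 272 cells stood at 9 or 10 genes. Without thinning the shares were 41.1%, 77.2% and 84.9%, a wider gap that goes with the depth of the libraries.

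**Figure D2:**
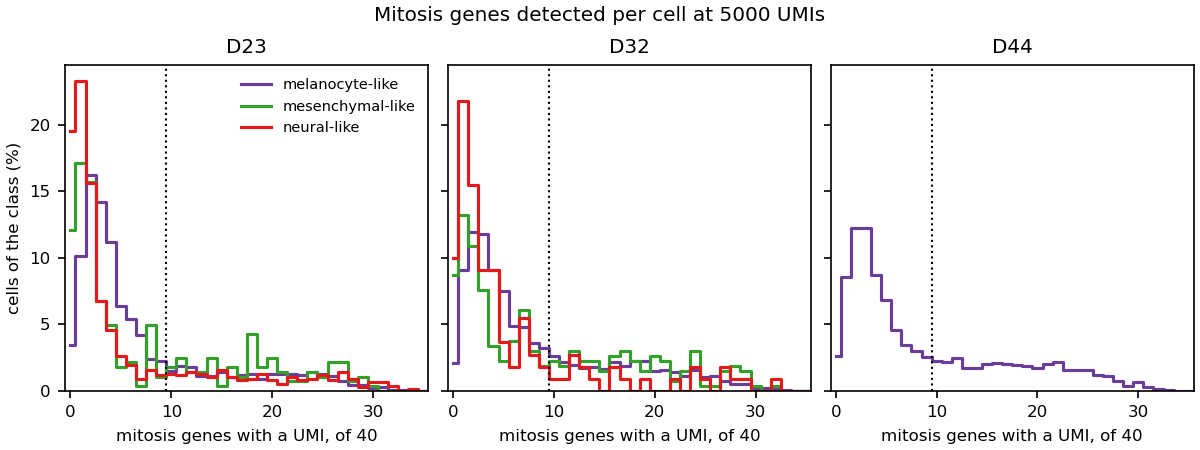
Number of the 40 mitosis genes with a UMI per cell (horizontal) against the share of cells of the class (vertical, %), at 5000 UMIs per cell. The dotted line marks the limit of 10. Each class had most cells at few genes and a long tail past 10, which held 24.2% to 35.4% of melanocyte-like cells, and D44 is drawn for melanocyte-like cells only.

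Cells past the limit differed from the rest in other ways. In the melanocyte-like class they had a median of 7, 7 and 8 of 30 DNA replication genes in D23, D32 and D44, against 2, 3 and 3 in the cells under 10. Their median depth before thinning was 15793, 45524 and 50899.5 UMIs, against 12258, 33602.5 and 39988 UMIs, and they were called doublets more often, at 5.65%, 9.65% and 8.42% against 3.42%, 4.71% and 5.32%. Mitochondrial shares were 3.92%, 4.60% and 4.43% against 4.32%, 5.34% and 5.04%. The part of depth and doublets in the share of such cells was not tested. With called doublets left out the shares were 23.7%, 30.8% and 34.6%.

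To see which genes follow the others, each gene was left out in turn, and its level was compared between melanocyte-like cells with 10 or more of the other 39 genes and cells with 2 or fewer. This describes the cells, and no test was made, since the other members chose them. In cells with 2 or fewer others the median member had a UMI in 3.23%, 2.48% and 2.98% of cells in D23, D32 and D44, and in cells with 10 or more in 41.1%, 38.8% and 42.3%. The first share is the background against which the shares above are read, and 23 of 40 genes stayed under 5% there in all 3 libraries. The ratio of the levels had a median of 25.6, 19.9 and 22.4 over the genes. It could be formed in all 3 libraries for 35 genes, and for 31 of these it was over 5 in each. Of 10636 genes outside the 40, 6.04% were over 1.5-fold higher in such cells in all 3 libraries and 1.98% lower.

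**Figure D3:**
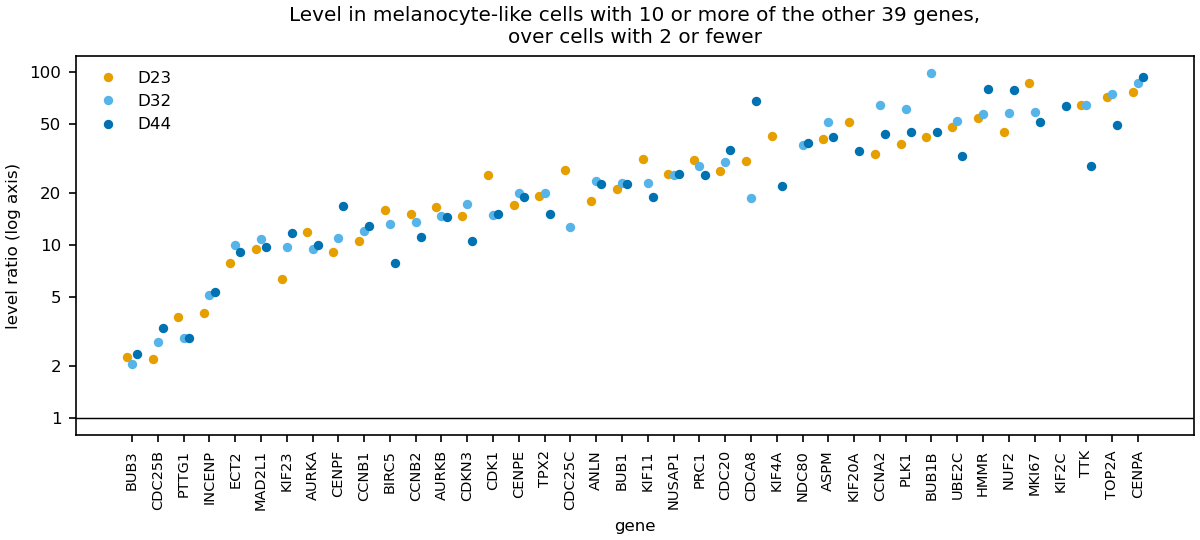
Ratio of the level of each mitosis gene in melanocyte-like cells with 10 or more of the other 39 genes over cells with 2 or fewer (log axis), per library. A point is missing where the second group held under 4 UMIs. PTTG1, BUB3 and CDC25B lie lowest, under 4 in all 3 libraries.

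High in this order were CENPA, with ratios of 76.5, 86.3 and 93.4 in D23, D32 and D44, TOP2A with 71.2, 74.1 and 49.2, MKI67 with 85.9, 58.4 and 51.6 and HMMR with 54.1, 56.8 and 79.3. CDC20 had 26.9, 30.3 and 35.3, and PLK1 had 38.6, 61.5 and 44.7. These genes were rarely seen in cells with few other members. MKI67 for example had a UMI in 56.7%, 57.9% and 69% of the cells with 10 or more others and in 1.22%, 1.83% and 2.8% of those with 2 or fewer.

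PTTG1, BUB3 and CDC25B were the exceptions, with ratios under 4 in every library. BUB3 had ratios of 2.25, 2.05 and 2.36 and a UMI in 29.7%, 39% and 31.2% of cells with 2 or fewer other members in D23, D32 and D44. CDC25B had ratios of 2.20, 2.76 and 3.31 and a share of 10.5%, 10.6% and 10.9% in those cells. PTTG1 had ratios of 3.83, 2.92 and 2.90, and its share there was 55.6%, 66.4% and 64.3%. So PTTG1 was present in most melanocyte-like cells in which the other mitosis genes were nearly absent. CENPF was in 35.6%, 23.5% and 18.5% of those cells but rose with the other members, by ratios of 9.17, 11.0 and 16.9.

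The promoters of these genes show what many of them share. The CHR (cell cycle genes homology region), written TTTGAA or TTCGAA, is the element through which DREAM and its activating partners bind, and CCAAT is the box of the factor NF-Y. Of 40 members, 34 matched a RefSeq promoter on GRCh38.p14, with 44 start sites, and AURKA, BUB3, TTK, BIRC5, TPX2 and UBE2C did not. In the 250 bases before the start, searched on both strands, a CHR was found at 23 of 44 starts (52.3%, against 14.3% of all 35116 promoters), a CCAAT at 33 (75.0%, against 32.0%) and both at 20 (45.5%, against 5.05%). These are matches of letters, not sites of binding. The 130 bases before the start are shown 5′ to 3′ for 5 members that moved between days, picked as examples after their values were seen, and for PTTG1 and CDC25B, exceptions above. Capitals mark CHR and CCAAT matches of either strand, which may overlap.
CCNB2: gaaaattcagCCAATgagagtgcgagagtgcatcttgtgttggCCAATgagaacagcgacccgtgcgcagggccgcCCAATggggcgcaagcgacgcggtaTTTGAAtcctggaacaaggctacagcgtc
PLK1: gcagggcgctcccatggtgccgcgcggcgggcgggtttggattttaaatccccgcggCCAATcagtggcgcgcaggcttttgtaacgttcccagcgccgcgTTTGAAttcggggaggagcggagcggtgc
CDC20: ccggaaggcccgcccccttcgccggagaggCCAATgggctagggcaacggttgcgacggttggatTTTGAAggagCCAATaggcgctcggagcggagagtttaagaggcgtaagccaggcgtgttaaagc
PRC1: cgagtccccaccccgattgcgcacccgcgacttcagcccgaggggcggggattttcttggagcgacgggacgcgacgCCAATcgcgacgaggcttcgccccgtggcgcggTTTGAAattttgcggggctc
TOP2A: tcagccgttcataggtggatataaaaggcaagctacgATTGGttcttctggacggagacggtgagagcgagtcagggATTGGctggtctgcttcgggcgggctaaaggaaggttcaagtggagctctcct
PTTG1: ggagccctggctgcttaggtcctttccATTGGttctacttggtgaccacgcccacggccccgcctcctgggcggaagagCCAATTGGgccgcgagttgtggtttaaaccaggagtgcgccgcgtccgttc
CDC25B: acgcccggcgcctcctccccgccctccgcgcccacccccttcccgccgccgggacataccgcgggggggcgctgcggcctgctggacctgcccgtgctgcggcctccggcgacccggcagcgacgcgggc

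The stretches lie at chr15:59105016-59105145 (CCNB2, plus strand), chr16:23678759-23678888 (PLK1, plus), chr1:43358851-43358980 (CDC20, plus), chr15:90994536-90994665 (PRC1, minus), chr17:40417897-40418026 (TOP2A, minus), chr5:160421725-160421854 (PTTG1, plus) and chr20:3786821-3786950 (CDC25B, plus) of GRCh38.p14. In CCNB2, PLK1 and PRC1 a CHR lay 29, 29 and 20 bases before the start, with CCAAT further out. TOP2A had its nearest CHR 151 bases before the start, outside the stretch shown. PTTG1, at chromosome 5 160421855-160428744 (ENSG00000164611 in the files), had 3 CCAAT matches in either strand at the start shown and no CHR at either of its 2 listed starts. CDC25B had neither motif at the start shown, the first of 4, and a CHR at 1 of the other starts.

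For the comparison of classes, the UMIs of a class, as deposited, were added up in each library, and edgeR's quasi-likelihood test included a library term, with p adjusted by Benjamini-Hochberg over 15087 genes. There were 8 such sums, since the 5 neural-like cells of D44 were too few for one. Between melanocyte-like and mesenchymal-like cells, 1 of 40 mitosis genes was called higher and 0 lower, against 21.2% of all genes called in either direction, 9.74% higher and 11.5% lower. The gene was PTTG1, higher by 1.36 on the log2 scale (SE 0.16, adjusted p = 0.0016 by edgeR). The median member stood at 0.22 on the log2 scale, with 34 of 40 above 0, against 0.03 over all genes, and the members ranged from -0.37 (CDC25C) to 1.36. By role, the largest and smallest folds were CDC25B at 0.55 and CDC25C at -0.37 among the CDK1 regulators, PLK1 at 0.25 and AURKA at 0.17 among the kinases, and BUB1B at 0.35 and TTK at 0.05 in the checkpoint. CENPF at 0.95 and NDC80 at -0.19 bounded the centromere genes, INCENP at 1.06 and CDCA8 at -0.15 the passenger complex, HMMR at 0.55 and KIF20A at -0.24 the spindle genes. None of these passed the test (adjusted p of 0.107 to 0.965 by edgeR).

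The direction of the other members depended on D44, whose mesenchymal-like sum came from 13 cells, and on the thinning. Without D44 the median member was at -0.31 and 32 of 40 were below 0, with 1 gene called higher and 1 lower. With thinned UMIs the median was -0.21. A stricter marker gate gave -0.30, but it left 4 mesenchymal-like cells in D44, too few for a sum. That setting thus also lacks the D44 sum, and an effect of the gate itself cannot be told apart from it. Without D23 or without D32, 10 and 5 members were called, all higher. The summed levels show the same turn: they were 2540, 2950 and 3271 CPM in melanocyte-like cells of the 3 libraries in day order, against 2883, 3313 and 1062 CPM in mesenchymal-like cells. Cells with 10 or more members made up 24.2%, 31.9% and 35.4% of the melanocyte-like class, against 33.1%, 39.2% and 7.69% of the mesenchymal-like class. The last of these is 1 of 13 cells, with an interval of 0.195 to 36.0%. Melanocyte-like cells were thus lower in D23 and D32 and higher in D44, but the D44 interval of the 13 cells holds the melanocyte-like share. In D23 and D32 the mesenchymal-like intervals were 27.6 to 38.9% and 33.3 to 45.4%. The melanocyte-like intervals, 22.4 to 26.0% and 30.7 to 33.2%, lay below them. An exact two-sided permutation test of the share over the 3 libraries gave p = 1, where 0.25 is the smallest it allows.

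Against neural-like cells, 3 of 40 members were called higher in melanocyte-like cells and 0 lower, against 8.56% of all genes called higher and 13.7% lower (22.2% in either direction). They were PTTG1, higher by 1.42 on the log2 scale (SE 0.19, adjusted p = 0.00258 by edgeR), the midzone motor KIF23, higher by 1.39 (SE 0.33, adjusted p = 0.0239), and AURKB, higher by 1.37 (SE 0.40, adjusted p = 0.0464). KIF23 had 34.5 and 43.0 CPM in the melanocyte-like cells of D23 and D32, against 17.9 and 12.7 CPM in the neural-like cells. AURKB had 50.0 and 60.7 CPM, against 27.2 and 23.6 CPM. Both genes were thus higher in melanocyte-like cells of D23 and D32. As they were picked by their calls in this comparison, these levels add no support. KIF23 and AURKB missed the threshold with the stricter gate (adjusted p = 0.0512 and 0.0522) and with no term for the library (0.0804 and 0.148). INCENP had the largest fold, 1.74 (SE 0.53), with adjusted p = 0.0551. The median member was at 0.62, against 0.00 over all genes, and 39 of 40 were above 0. Without D44 the calls were 5 members. Without D23 or without D32 a single neural-like sum was left, and the median member was at 0.94 and 0.77. Cells with 10 or more members were 24.2% of the melanocyte-like class in D23 (interval 22.4 to 26.0%) and 31.9% in D32 (30.7 to 33.2%), against 22.2% (19.3 to 25.3%) and 19.1% (12.2 to 27.7%) of the neural-like class, so that the intervals overlapped in D23 and not in D32. With the stricter gate the direction turned in D23, with 22.0% of melanocyte-like against 22.6% of neural-like cells. Endothelial markers summed to 38.0 and 35.3 CPM in melanocyte-like cells of D23 and D32, against 116.5 and 83.6 CPM in neural-like cells, and their part in these folds was not tested.

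Between mesenchymal-like and neural-like cells 0 of 40 members were called by edgeR, with 3 at an unadjusted p under 0.05, and DESeq2 called 0 as well, against 4.41% of all genes (1.73% higher and 2.68% lower). The median member was at 0.44, with 38 of 40 above 0, against -0.03 over all genes. The range ran from -0.12 (HMMR) to 1.15 (KIF23, adjusted p = 0.102 by edgeR). Without D44, whose mesenchymal-like sum is the 13 cells, 4 members were called higher and the median was 0.72. The share of cells with 10 or more members was 33.1% and 39.2% in mesenchymal-like cells of D23 and D32, against 22.2% and 19.1% in neural-like cells, higher in 2 of 2 libraries, where an exact test cannot go below 0.5.

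PTTG1 was the member called against both other classes. Securin holds separase inactive until anaphase, so that its protein is destroyed at each division. It had 361, 518 and 553 CPM in melanocyte-like cells of the 3 libraries in day order, against 174, 235 and 277 CPM in mesenchymal-like cells and 167 and 213 CPM in neural-like cells of D23 and D32. The lowest melanocyte-like level was above the highest given here for the other classes. As the gene was picked by its calls, this adds no support, and such a count over all genes was not made. In cells with 2 or fewer other members, a PTTG1 UMI was found in 55.6% of melanocyte-like cells of D23 (481 of 865, interval 52.2 to 59.0%) and 66.4% of D32 (1147 of 1727, 64.1 to 68.6%). In mesenchymal-like cells of the same kind it was found in 10.9% (14 of 128, 6.11 to 17.7%) and 16.7% (16 of 96, 9.84 to 25.6%), and in neural-like cells in 17.3% (82 of 473, 14 to 21.1%) and 20.0% (11 of 55, 10.4 to 33%). None of these intervals overlaps between the melanocyte-like class and the others. They cover counting error among the cells of a library, and cells are not replicates. PTTG1 was picked by its calls and such overlaps were not counted over all genes, so that this too adds no support.

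In cells with 10 or more other members the classes were closer. PTTG1 was then in 90.7%, 93.9% and 92.7% of melanocyte-like cells of the 3 libraries in day order, against 80.4% and 73.5% of mesenchymal-like and 84.7% and 85.0% of neural-like cells of D23 and D32. Its level in them was 713, 829 and 862 CPM, against 420 and 426 CPM and 519 and 590 CPM. The class difference was thus relatively larger in the cells with few mitosis genes, at 186 and 284 CPM in melanocyte-like cells of D23 and D32 against 21.9 and 45.8 CPM in mesenchymal-like and 40.6 and 40.0 CPM in neural-like cells. PTTG1 was called against mesenchymal-like cells under all 11 alternatives, with log2 folds of 1.17 to 1.59. Leaving out D23 or D32 left a single neural-like sum, so that those fits do not replicate that class. Against neural-like cells PTTG1 had log2 folds of 1.31 to 1.68, and it was called in every alternative that kept both neural-like sums. Its near-identical copy PTTG2 had 10, 41 and 31 UMIs in the kept cells of the 3 libraries, and reads shared between such copies could be split, as for KIF4A and KIF4B (11, 18 and 21 UMIs).

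**Figure D4:**
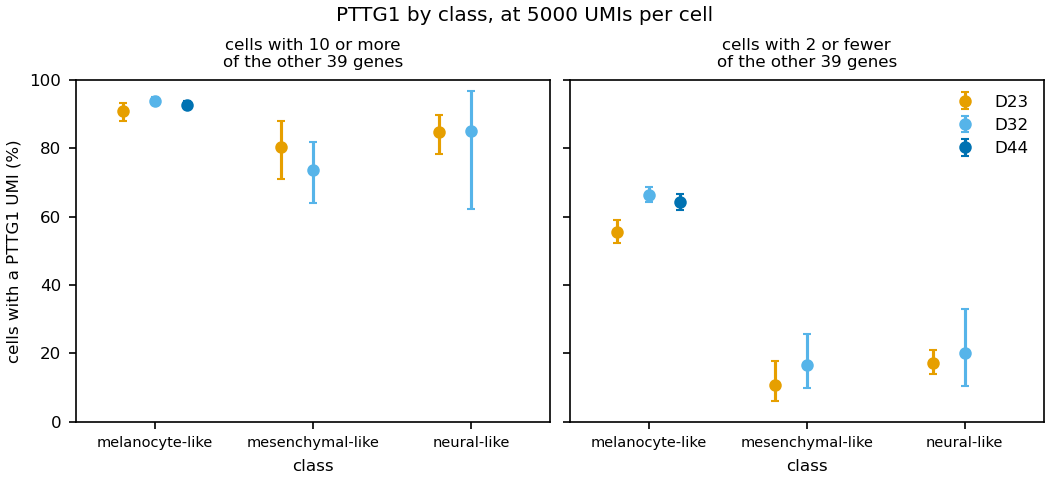
Share of cells with a PTTG1 UMI (vertical, %) by class and library at 5000 UMIs per cell, in cells with 10 or more (left) and 2 or fewer (right) of the other 39 mitosis genes. Bars are exact 95% binomial intervals, for counting error only, and D44 is drawn for melanocyte-like cells only. On the right the melanocyte-like points lie at 55.6% to 66.4% and those of the other classes at 10.9% to 20.0%.

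Other genes of the division machinery were read from lists outside the 40, beside the 21.2% of all genes called against mesenchymal-like and the 22.2% called against neural-like cells. In melanocyte-like over mesenchymal-like cells, edgeR called 0 of 16 APC/C genes (4 at an unadjusted p under 0.05, 2 called by DESeq2), 0 of 8 condensin genes (0 and 0), 0 of 13 cohesin genes (1 and 1), 0 of 27 further kinetochore genes (0 and 0) and 0 of 30 DNA replication genes (2 and 0). Over neural-like cells, it called 2 of 16 APC/C genes, ANAPC13 at -0.89 (adjusted p = 0.00601) and CDC16 at 0.85 (adjusted p = 0.0316), and 2 of 30 replication genes, POLE at 1.10 (adjusted p = 0.0395) and MCM3 at 0.93 (adjusted p = 0.0334). It called 0 of 8 condensin (1 at an unadjusted p under 0.05, 0 by DESeq2), 0 of 13 cohesin (2 and 0) and 0 of 27 kinetochore genes (4 and 1) there. Of 21 further spindle and cytokinesis genes 1 was called, CIT, the citron kinase of the midbody, higher by 1.37 (adjusted p = 0.0195), and it was also higher against neural-like cells, by 1.86 (adjusted p = 0.0101). FOXM1 was called against neural-like cells, at 1.22 (adjusted p = 0.0477), and stood at 0.36 (adjusted p = 0.46) against mesenchymal-like cells. Whether these 2 folds differ was not tested. In D23 FOXM1 had 23.9 CPM in melanocyte-like cells (interval 21.1 to 27) and 19.7 CPM in neural-like cells (15.5 to 24.7), which overlap. In D32 it had 21.9 CPM (20.2 to 23.8) against 7.27 CPM (1.98 to 18.6), the latter on 4 UMIs.

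Of 14 further genes of entry into mitosis, 2 were called higher and 1 lower against mesenchymal-like cells, a share near that of all genes, and 3 higher and 1 lower against neural-like cells. CDK2, the kinase of S phase entry, was higher in melanocyte-like cells by 2.97 against mesenchymal-like (adjusted p = 1.36e-04 by edgeR) and by 3.23 against neural-like cells (adjusted p = 2.04e-04). It had 146, 144 and 129 CPM in melanocyte-like cells of the 3 libraries in day order, against 17.8 and 23.4 CPM in mesenchymal-like and 20.5 and 16.4 CPM in neural-like cells of D23 and D32. On chromosome 12 CDK2 (55966830 to 55972789) is the neighbour of the melanocyte marker PMEL (55954105 to 55966709) in RefSeq on GRCh38.p14. CKS2, a subunit of CDK complexes, was higher by 1.09 (adjusted p = 0.0135) and 1.28 (adjusted p = 0.0139). Of 10 CDK inhibitors and D cyclins, 4 were lower against mesenchymal-like cells and 5 against neural-like cells, with CCND2 at -6.53 (adjusted p = 0.0135) and CDKN2B at -5.34 (adjusted p = 5.10e-04) against mesenchymal-like cells.

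The days were compared in melanocyte-like cells alone. From D23 to D32, 7 of 40 members were over 1.5-fold higher and 2 over 1.5-fold lower, against 15.2% and 25.8% of the 13902 genes with 20 or more UMIs. The higher ones were CCNB2 (2.35-fold, interval 2.11 to 2.63), PLK1 (2.21, 1.87 to 2.61), CDC20 (2.09, 1.84 to 2.37), CDKN3 (1.91, 1.74 to 2.09), NUF2 (1.61), CENPA (1.55) and NDC80 (1.54). The lower ones were TOP2A (0.537, 0.503 to 0.574) and KIF20A (0.629, 0.536 to 0.739). MAD2L1 at 1.48 was just inside the limit. The median member was at 1.16, with 27 of 40 above 1. Over the 13902 genes the median log2 fold was -0.125, and the share above 1 was not counted. Scaled by TMM factors in place of total UMIs, 15 members were over 1.5-fold higher and 1 lower, with a median of 1.37, so that the count of higher genes depends on the scaling.

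Part of this pattern held within the cells with 10 or more other members, in which PLK1 was found in 23.9%, 35.0% and 39.8% of cells in D23, D32 and D44, CCNB2 in 36.3%, 55.4% and 57.2% and CDC20 in 34.0%, 46.6% and 49.8%. TOP2A was found in 75.3%, 54.9% and 62.8% of them and KIF20A in 29.1%, 16.0% and 19.6%. These genes were picked by their folds between D23 and D32 in the same class. Cells with 10 or more of the 40 genes held 71.8% to 78.6% of the members' UMIs there. The shares thus largely repeat that choice, and no general difference in makeup is read from them.

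The other classes of the same libraries gave folds on the same side of 1 for all of these genes but NUF2 and NDC80. CCNB2, PLK1, CDC20, CDKN3 and CENPA were 1.78, 1.41, 2.20, 2.01 and 1.72-fold higher in D32 than D23 in mesenchymal-like cells, and 1.59, 1.98, 2.41, 1.60 and 1.86-fold in neural-like cells. TOP2A was at 0.541 and 0.428, and KIF20A at 0.541 and 0.637. NUF2 and NDC80 were at 1.38 and 1.20 in mesenchymal-like and at 0.890 and 0.830 in neural-like cells, with intervals that held 1 in both classes. The intervals of PLK1 in mesenchymal-like cells (0.899 to 2.24) and KIF20A in neural-like cells (0.248 to 1.38, on 7 UMIs in D32) also held 1. Of the 40 members, 12 were above 1 and 10 below 1 in all 3 classes, a count that was not made over all genes. In mesenchymal-like cells 11 members were over 1.5-fold higher and 5 lower (24.0% and 25% of 9234 genes), and in neural-like cells 7 and 13 (23.8% and 27.1% of 11152 genes). These classes share their libraries, and D23 differs from D32 in induction and sequencing run, which cannot be told apart from the day.

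From D32 to D44, which share an induction and a run, the members moved less. One of 40, MKI67, was past 1.5-fold higher (1.5, interval 1.42 to 1.59) and 0 were over 1.5-fold lower, against 5.82% and 8.15% of 14165 genes. The next were PRC1 (1.42, 1.34 to 1.51), CENPE (1.41, 1.30 to 1.53), TOP2A (1.38, 1.30 to 1.46), CDCA8 (1.33) and PLK1 (1.32). The lowest were MAD2L1 (0.828, 0.787 to 0.870), BUB3 (0.871, 0.830 to 0.913) and CDK1 (0.888, 0.843 to 0.935). The median was 1.11 and 32 of 40 were above 1, where 24 had an interval above 1 and 3 below. Over the 14165 genes the median log2 fold was -0.0328, and the share above 1 was not counted. By role the medians were 1.44 for TOP2A and MKI67, 1.22 for the passenger complex, 1.19 for the spindle genes and the kinases, 1.12 for the centromere, 1.08 for cyclins and CDK1 regulators, 0.978 for cytokinesis and 0.974 for the checkpoint. With UMIs as deposited or the stricter gate 0 members were past 1.5-fold. All these intervals cover counting error in 1 library per day, not the spread between cultures.

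**Figure D5:**
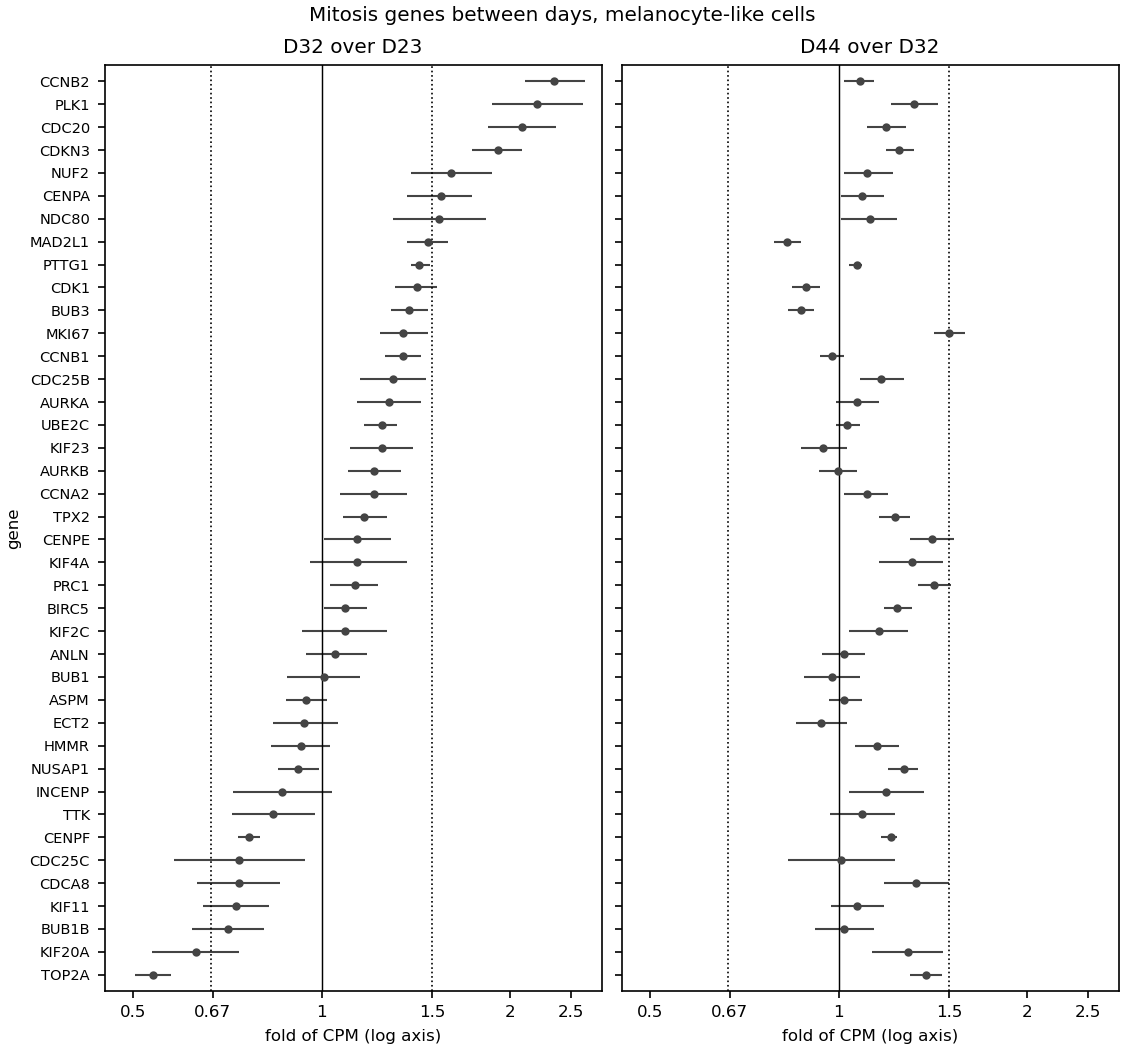
Fold of CPM of each mitosis gene between libraries in melanocyte-like cells (log axis), D32 over D23 on the left and D44 over D32 on the right, with genes in 1 order on both sides. Bars are exact 95% intervals for counting error only, and dotted lines mark 1.5-fold in each direction. From D23 to D32 the folds span 0.537 (TOP2A) to 2.35 (CCNB2), and from D32 to D44 0.828 (MAD2L1) to 1.5 (MKI67).

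Lists outside the 40 were counted in the same way between D32 and D44, beside the 5.82% of all genes past 1.5-fold higher and 8.15% lower. Of 10 CDK inhibitors and D cyclins, 6 were higher and 2 lower, with a median of 1.65. CDKN2A (73.3, interval 20 to 610.8, on 155 and 2 UMIs in D44 and D32) and CCND2 (0.0541, on 2 and 35 UMIs) led them. The limit of 20 UMIs counts both days together. CDKN2A, CCND2 and CDKN2B (5.44, on 23 and 4 UMIs) passed it only through the day on which they were high. Large folds of these genes were thus set by the limit, and the counts of this list are not read as a result. Of 30 DNA replication genes 0 were past 1.5-fold in either direction (median 1.04), and of 21 further spindle and cytokinesis genes 2 were higher, HJURP (1.56) and KIFC1 (1.5), with a median of 1.24. ESPL1, separase, which securin holds in check, was at 1.52 (interval 1.24 to 1.85) on 266 and 166 UMIs in D44 and D32. From D23 to D32, 9 of 30 replication genes were higher and 3 lower (15.2% and 25.8% of all genes), led by FEN1 (2.62) and CDC45 (2.17).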

How the data were processed

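The authors deposited raw UMI counts per gene and barcode for each of the 3 libraries, not normalized, made with Cell Ranger 6.1.2 on hg38, per the submitters' processing notes. The annotation release is not given in the sources used here. The study's limits were applied: 1000 to 7000 genes with 500 to 50000 UMIs for D23, 3000 to 9000 genes with 500 to 100000 UMIs for the later libraries, bounds excluded, and at most 10% mitochondrial UMIs. Cells were thinned once to 5000 UMIs without replacement (seed 1).

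Classes were gated on thinned counts. A class needed 4 or more of its 12 markers, at most 2 of the melanocyte markers for the other classes, at most 2 of each other list for melanocyte-like cells, and at most 2 neural markers for mesenchymal-like cells. Collagens were allowed in neural-like cells. These limits were set after the marker counts, but not the mitosis genes, had been seen. In D23, D32 and D44, 370, 255 and 92 cells (10.2%, 4.23% and 1.58%) had no class. Doublets were called with Scrublet in Scanpy 1.11.5 (0.8% per 1000 barcodes, 30 components: 170, 430 and 372 cells) and kept.

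Sums of at least 10 cells were tested in edgeR 4.0.16 on R 4.3.3 (TMM, filterByExpr, class and library as terms, threshold 0.05). Alternatives were DESeq2 1.42.0, scaling by total UMIs, no filter, thinned UMIs, no library term, a stricter gate (6 own and at most 1 other marker), no doublets, 1 cell filter for all libraries and leaving out each library. Python 3.11.15 with numpy 2.4.6 and scipy 1.17.1 gave exact Poisson, binomial and conditional intervals. The tests were checked on simulated data. The library pairs the classes, since they come from the same droplets. Cells were not taken as replicates. With the library term, p-values measure only how class differences vary between the 3 libraries, not the spread between cultures of the same day. Neural-like sums came from D23 and D32 only, so that folds against that class rest on these libraries. The tests took the later libraries as separate replicates, although they stem from a single induction. The p-values of the class calls make no allowance for this. Genes were named by rule: all 40 members, per role those with the largest and smallest fold, and of other lists the 2 largest folds among those called. The members and lists were chosen with earlier results of these data known.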

Additional observations from a re-analysis of the deposited data

Results flagged for a closer look

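CDC25B, the activating phosphatase, moved in opposite directions in 2 classes from D23 to D32: its fold was 1.30 in melanocyte-like cells (interval 1.15 to 1.47) and 0.474 in neural-like cells (0.212 to 0.928), both for counting error only. The difference between the classes was not tested, and the neural-like value of D32 rests on 9 UMIs.

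Cells that passed the filter but fell in no class also held mitosis genes. Of them, 27.6% in D23 (102 of 370, interval 23.1 to 32.4%), 39.2% in D32 (100 of 255, 33.2 to 45.5%) and 35.9% in D44 (33 of 92, 26.1 to 46.5%) had 10 or more of the 40 genes.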

How the results depend on the processing

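For melanocyte-like over mesenchymal-like cells, the 1 call became 5 with no filter on low counts and 2 to 10 without 1 library. The median log2 fold of the members turned to -0.21 with thinned UMIs and ranged from -0.31 (without D44) to 0.59 (without D23). It was -0.30 with the stricter gate, where D44 had 4 mesenchymal-like cells and so no sum. For melanocyte-like over neural-like cells, the 3 calls became 5 with DESeq2, 23 with no filter, 1 with no term for the library and 5 to 18 without 1 library. For mesenchymal-like over neural-like cells, the 0 calls became 5 with no filter and 4 without D44. The share of melanocyte-like cells with 10 or more members in D23, D32 and D44 became 28.8%, 38.8% and 40.9% at 8 genes, 16.8%, 21.8% and 25.1% at 15 genes, 15.7%, 19.5% and 22.8% at 2500 UMIs and 41.1%, 77.2% and 84.9% without thinning, and with the stricter gate 22.0% in D23. The order D23, D32, D44 held in each of these settings. From D23 to D32 the 9 members past 1.5-fold became 3 at 2-fold and 16 with TMM factors, and from D32 to D44 the 1 became 0 at 2-fold, with UMIs as deposited and with the stricter gate. The cause of each shift was not tested. No paired analysis was possible because each day is 1 library, and between classes the library term is the pairing. The 13 and 5 cells of D44 limit what can be said of the mesenchymal-like and neural-like classes there, and the 1 library a day leaves the spread between cultures unknown.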

Other observations

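Within melanocyte-like cells, those with 10 or more mitosis genes were set beside those with 2 or fewer for genes outside the 40, as a description with no test. All 21 further spindle and cytokinesis genes, 8 of 8 condensin genes, 21 of 27 kinetochore genes and 29 of 30 DNA replication genes were over 1.5-fold higher in all 3 libraries, and 1 of 15 measured APC/C genes was, the inhibitor FBXO5, against 6.04% of all genes outside the 40. DLGAP5, a spindle protein, was 82.8, 107 and 109-fold higher in D23, D32 and D44, and FOXM1 10.7, 8.71 and 6.36-fold.

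The pigment cell markers leaned the other way: the median of the 12 was at 0.743, 0.814 and 0.728 in D23, D32 and D44, and none was past 1.5-fold in all 3 libraries. Of 6 measured CDK inhibitors and D cyclins, 1 was over 1.5-fold lower in all 3 libraries, CCND1 (cyclin D1) at 0.416, 0.398 and 0.566, and 2 were higher, CDKN2D at 1.91, 1.64 and 2.87 and CCND3 (cyclin D3) at 1.84, 1.53 and 1.66.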
